A study of Bos taurus with 2 samples.

Results

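The 3 neighbouring genes of the pseudoautosomal region (PAR) of the cattle Y-chromosome described here were SLC25A6 (LOC132344463), ASMTL (LOC132344461) and P2RY8 (LOC132344462), and what was measured was the methylation of their CpG sites. They lie side by side beyond IL3RA, at positions 736218 to 740740, 746117 to 767494 and 770056 to 818420 of the Y-chromosome assembly, and their CpGs were chosen by position alone: every CpG inside a gene or within 1 kb of it. This gave 489 CpGs for SLC25A6, 799 for ASMTL and 1504 for P2RY8, so 2792 of the 975164 CpGs with a PacBio value on the chromosome (0.286%). The symbols SLC25A6, ASMTL and P2RY8 and the strand came from the study's own gene annotation, which puts all 3 genes on the minus strand; the 5′ end is therefore the end with the higher coordinate.

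The DNA came from the lung of 1 male mid-gestation F1 fetus of a Wagyu sire and a Charolais dam, and it was sequenced on PacBio HiFi and on Oxford Nanopore (ONT), with 1 library each. There was no treated, mutant or control group. The 2 libraries are 2 measurements of 1 animal and not biological replicates, so no test across samples was possible, and each SD below is the spread over the CpGs of a stretch. The DNA was of whole lung and held many cell types, whose methylation patterns these values average.

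CpG methylation is the addition of a methyl group to the cytosine of a CG pair. In mammals most CpGs carry it, whereas the dense CpG clusters (CpG islands) at the promoters of widely used genes are usually free of it, and the bodies of transcribed genes are usually methylated. The PAR is the stretch in which the X and Y-chromosomes pair and exchange sequence in male meiosis, so genes of the PAR usually have a copy on each, and the deposited values do not separate the copies. The median PacBio depth was 75 reads per CpG in the 3 genes and 78 in the PAR, against 41 in the male-specific region outside the centromere.

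Each gene was split into a 5′ end (1 kb on each side of its start), a 3′ end (1 kb on each side of its other end) and a body (the rest). A CpG was called low under 20% methylation, high over 80% and intermediate between them. The PacBio level is the model score of pooled reads of both strands at a CpG; for ONT, the values of its 2 strands were averaged. All 2792 CpGs had at least 10 PacBio reads (range 41 to 94), none was lost to that filter, and all had ONT values on both strands.

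The genes are CpG-rich. With their flanks they held 7.50 (SLC25A6), 3.42 (ASMTL) and 2.99 (P2RY8) CpGs per 100 bp, against 2.003 in the whole PAR. They also held many low CpGs: 676 of 2792 (24.2%) were low by PacBio and 695 (24.9%) by ONT, whereas 7.91% of the 136359 CpGs of the PAR were low by PacBio and 8.45% by ONT. Those low CpGs were gathered in few places, most of them at the 3 gene starts.

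The 5′ ends were the least methylated stretch of each gene, by a wide margin on both platforms. SLC25A6 encodes a carrier that exchanges ADP and ATP across the inner mitochondrial membrane and is used by nearly all cells. Its 5′ end averaged 3.48% ± 1.80 (SD over 234 CpGs) by PacBio and 1.76% ± 2.09 by ONT, and all 234 CpGs were low on both. The highest of them stood at 18.1% by PacBio. With ends of 2 kb, which reach beyond the low stretch, the mean was 14.3% by PacBio and 11.52% by ONT. Without CpGs with an ONT value of 0 the ONT mean was 2.88%. ASMTL encodes a protein that joins a nucleotide pyrophosphatase-like part to a part resembling acetylserotonin O-methyltransferase. Its 5′ end averaged 3.72% ± 3.75 over 151 CpGs by PacBio and 2.49% ± 4.09 by ONT, with 149 low CpGs by PacBio and 148 by ONT. With ends of 2 kb the mean was 17.6% and 15.1%. The ONT mean was 1.65% with ends of 500 bp, 4.50% where windows of 200 bp had equal weight and 4.45% without CpGs with an ONT value of 0. P2RY8 encodes a G protein-coupled receptor best known from lymphocytes, where it confines germinal centre B cells. Its 5′ end was higher and more uneven, at 14.7% ± 20.8 over 135 CpGs by PacBio and 11% ± 16.6 by ONT, and 107 of its CpGs were low by PacBio. This level, too, depended on the window: it was 6.35% by PacBio and 4.50% by ONT within 500 bp of the start, 19.97% and 15.96% with ends of 2 kb, and 22.9% and 16.8% where windows of 200 bp had equal weight.

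The levels of the SLC25A6 and ASMTL 5′ ends differed by far less than the spread over their CpGs. They also lie near the lowest score in the PacBio file, where the lowest value in the PAR was 1.7%. At the median CpG of either 5′ end the PacBio counts were 2 modified reads, of 74 reads in SLC25A6 (2.70%, Wilson 95% interval 0.744 to 9.33) and of 80 in ASMTL (2.50%, 0.688 to 8.66). Such intervals cover the counting error of a single CpG only, so they do not give the precision of the means.

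The bodies were methylated, each to its own degree. The ASMTL body averaged 90.1% ± 11.9 over 534 CpGs by PacBio and 80.6% ± 12.8 by ONT, and 89.5% of its CpGs were high by PacBio. The SLC25A6 body averaged 75.0% ± 27.0 over 141 CpGs by PacBio and 67.1% ± 23.3 by ONT, and 63.1% of its CpGs were high. The P2RY8 body averaged 67.8% ± 29.4 over 1322 CpGs by PacBio and 59.6% ± 26.2 by ONT, and 11.95% of its CpGs were low, 36.8% intermediate and 51.2% high by PacBio. The ASMTL body had the highest mean on both platforms. The SLC25A6 and P2RY8 means lie well within 1 SD of each other, and their order turned where windows of 200 bp had equal weight, with 64.9% in SLC25A6 and 68.6% in P2RY8 by PacBio and 58.5% and 60.04% by ONT. With ends of 2 kb, which leave a shorter body, SLC25A6 stood at 90.9% by PacBio, near ASMTL (91.4%) and above P2RY8 (70.1%).

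In ASMTL the 5′ end was lower than the body by 86.4 percentage points by PacBio and 78.1 by ONT. The difference was 71.5 and 65.3 points in SLC25A6, and 53.1 and 48.6 points in P2RY8. That of ASMTL was the largest with ends of 1 kb, but with ends of 2 kb that of SLC25A6 was (-76.6 against -73.7 points by PacBio, -67.5 against -66.6 by ONT). In SLC25A6 and ASMTL the difference was more than the SDs of both stretches added together on both platforms; in P2RY8 it exceeded that sum by PacBio and by ONT as well, by a narrow margin.

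**Figure D1:**
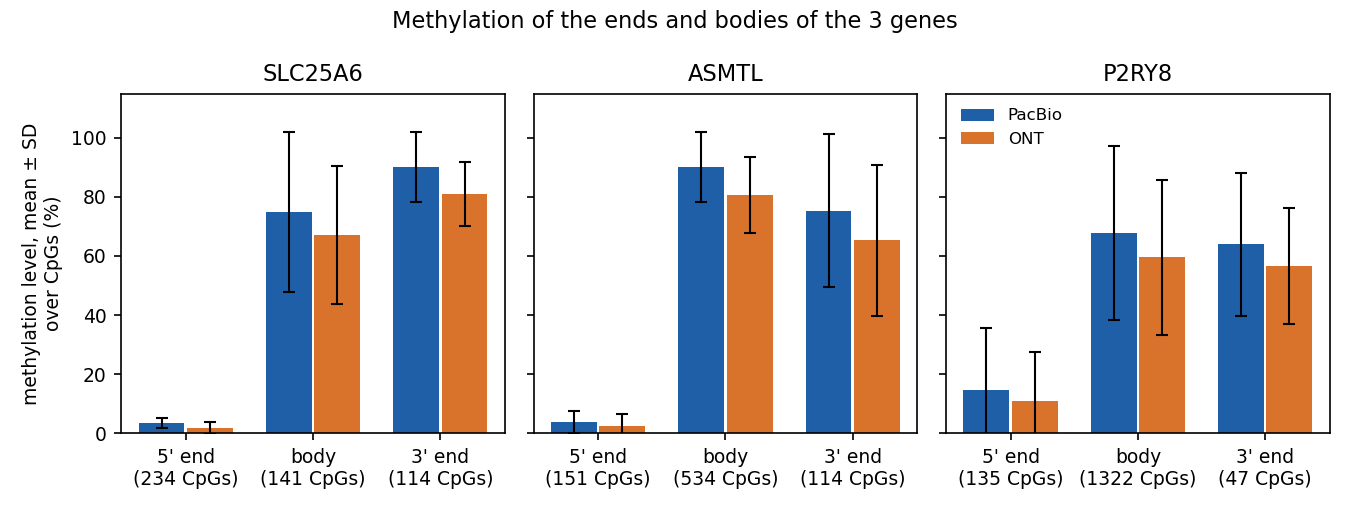
Mean methylation level (percent) of the 5′ end, body and 3′ end of SLC25A6, ASMTL and P2RY8 by PacBio (blue) and ONT (orange); bars give the mean over CpGs, error bars the SD over CpGs (cut off at 0), and the number of CpGs stands under each pair of bars. The 5′ end is the lowest stretch in each gene, from 3.48% in SLC25A6 to 14.7% in P2RY8 by PacBio, while the bodies lie between 67.8% and 90.1%.

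The 3′ ends did not share the low level of the 5′ ends, and they stood in a different relation to the body in each gene. In SLC25A6 the 3′ end was above the body, at 90.1% ± 11.9 over 114 CpGs by PacBio and 80.9% ± 10.9 by ONT, and no CpG there was low on either platform. In ASMTL it was below the body, at 75.3% ± 25.9 over 114 CpGs by PacBio and 65.3% ± 25.6 by ONT. In P2RY8 it was close to the body, at 63.9% ± 24.3 over 47 CpGs by PacBio and 56.7% ± 19.7 by ONT. By PacBio the 3′ end minus body differences were 15.1, -14.8 and -3.84 points, each smaller than the larger of the SDs over the CpGs of body and 3′ end. These relations changed with the size of the ends. With 2 kb the SLC25A6 3′ end was below the body (85.3% against 90.9% by PacBio, 75.2% against 79.02% by ONT), and the P2RY8 3′ end was far below it (38.7% against 70.1% by PacBio). That wider P2RY8 3′ end takes in part of the low stretch at the ASMTL start, so its level is not that of the P2RY8 end alone. With 500 bp the ASMTL 3′ end and body were close, at 84.7% and 86.04% by PacBio.

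The ASMTL 3′ end held a short low stretch inside the gene. In its last 1 kb the mean was 66.9% ± 32.4 over 56 CpGs by PacBio, and outside the gene it was 83.4% ± 13.3 over 58 CpGs. The 5 CpGs of the window 20600 to 20800 bp from the ASMTL start averaged 3.54% by PacBio and 2.67% by ONT, and the 9 CpGs of the window before it averaged 30.8% and 20.4%. All 10 low CpGs of the ASMTL 3′ end by PacBio lay in the last 1 kb of the gene.

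The low stretches at the starts were next measured outward from the start, as the first window of 200 bp, with at least 3 CpGs, whose mean reached 50%. Inside SLC25A6 that window was 1200 to 1400 bp from the start on both platforms, with 65.05% by PacBio and 53.9% by ONT. Inside ASMTL it was the same window, with 78.1% and 66.9%. Inside P2RY8 it lay further in, at 1800 to 2000 bp by PacBio (51.0%) and 2200 to 2400 bp by ONT (51.5%).

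Upstream of the starts the order was different. Methylation reached 50% at 600 to 800 bp upstream of P2RY8 (65.2% by PacBio and 54.5% by ONT), at 1200 to 1400 bp upstream of SLC25A6 by PacBio (64.7%) and 1400 to 1600 bp by ONT (61.9%), and at 1800 to 2000 bp upstream of ASMTL on both (64.3% and 62.0%, over 4 CpGs). The low stretch of P2RY8 was thus shifted into the gene, and that of ASMTL away from it. Upstream of ASMTL the CpGs at 1250 to 1500 bp were still low (3.31% by PacBio), but none lay at 1500 to 1750 bp. The upstream edge of its low stretch is therefore only loosely placed.

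Most CpGs of the P2RY8 5′ end that were not low by PacBio lay upstream: 22 of 28, with 6 inside the gene. The upstream 1 kb averaged 26.0% ± 27.3 over 53 CpGs by PacBio and 20.4% by ONT, and the first 1 kb inside averaged 7.39% ± 9.99 over 82 CpGs and 4.90%. The highest CpG, 751 bp upstream, stood at 87.6% by PacBio, with 56 modified of 63 reads, and at 73.2% by ONT. The 6 CpGs inside the gene lay between 651 and 947 bp from the start, and the first of these stood at 57.3% by PacBio and 33.8% by ONT. By ONT only 2 CpGs of the first 1 kb inside were not low. In ASMTL the 2 CpGs of the 5′ end that were not low by PacBio lay 706 and 979 bp inside the gene, at 21.7% and 39.6%.

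**Figure D2:**
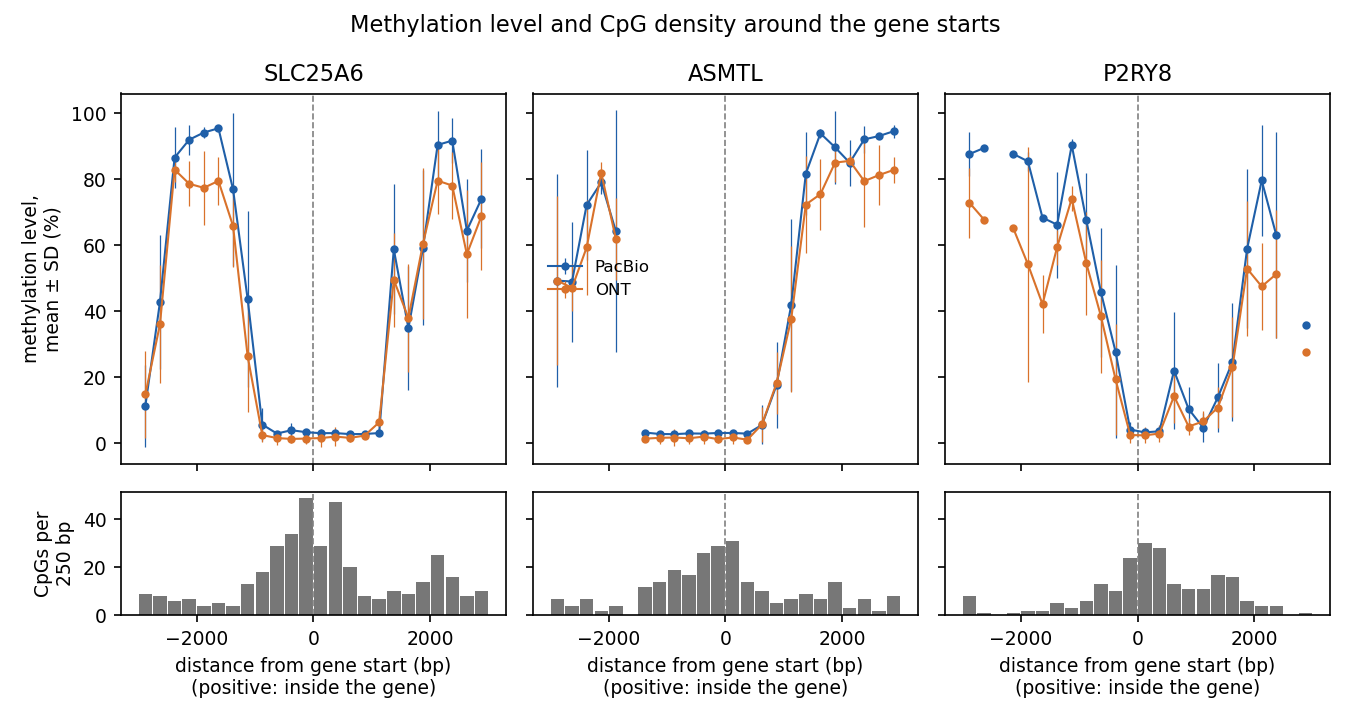
Methylation level (percent, mean ± SD over the CpGs of each 250 bp bin, upper row) by PacBio (blue) and ONT (orange) and number of CpGs per 250 bp (grey bars, lower row) against distance from the start of SLC25A6, ASMTL and P2RY8 in bp, positive inside the gene. The low stretch lies across the start of each gene, reaches furthest upstream in ASMTL and furthest inside in P2RY8, and covers the bins with most CpGs.

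The SLC25A6 body rose in steps. By PacBio its CpGs averaged 43.9% ± 28.4 between 1001 and 2000 bp from the start (40 CpGs), 84.5% ± 15.0 between 2001 and 3000 bp (59 CpGs) and 91.3% ± 8.30 between 3001 and 3521 bp (42 CpGs). By ONT the same stretches stood at 43.3%, 74.4% and 79.5%. The rise was not even. The window at 1600 to 1800 bp stood at 26.5% ± 14.2 by PacBio and 33.9% ± 14.3 by ONT over 7 CpGs. The window at 2600 to 2800 bp stood at 61.2% ± 10.25 and 59.9% ± 11.5 over 6 CpGs. Both were lower than the windows before them on both platforms, as were those at 1400 to 1600, 2400 to 2600 and 3200 to 3400 bp. All 11 low CpGs of the body by PacBio lay between 1001 and 2000 bp.

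The ASMTL body was almost flat. In stretches of 5 kb from 1001 bp onward it averaged 88.6%, 91.1% and 91.3% by PacBio and 77.9%, 81.9% and 81.7% by ONT. The last stretch, from 16001 to 20376 bp, had 79.7% ± 29.5 by PacBio and 73.4% by ONT, but it held only 19 CpGs. That stretch includes 2 runs of sequence with no CpG at all, of 2047 and 1619 bp, the longest such gaps in the 3 genes, and its 2 low CpGs lower its mean. No window of 200 bp in the ASMTL body with at least 3 CpGs, lying wholly inside it, averaged under 50% by PacBio.

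The P2RY8 body alternated between methylated stretches and short low patches. In 5 kb stretches from its start its PacBio mean ran from 46.0% (1001 to 6000 bp) through 67.4%, 70.6%, 67.8% and 68.7% to 81.7% and 80.5%, fell to 39.9% between 36001 and 41000 bp, returned to 80.1%, and was 59.4% in the last 1363 bp. The ONT means of the lowest stretch and of the stretches on either side of it were 34.03%, 70.7% and 74.2%. Of its 175 windows of 200 bp with at least 3 CpGs, 12 averaged under 20% and 34 under 50% by PacBio.

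The longest of these patches by PacBio was a stretch of 1191 bp, 777692 to 778882, about 40 kb from the start of P2RY8. Its 52 CpGs averaged 5.31% ± 4.84 by PacBio and 3.97% ± 4.22 by ONT, a level like that of the gene's own start. It lies inside the gene, 10198 bp from the ASMTL start. It also holds the least covered CpG of the 3 genes, 778232, with 41 PacBio reads, none of them modified in the estimated counts (Wilson 95% interval 0 to 8.57%), while the median depth of the patch was 75 reads. Whether this stretch is a start of one of the 5 RefSeq transcripts of P2RY8 was not tested, since transcript positions were not used here.

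**Figure D3:**
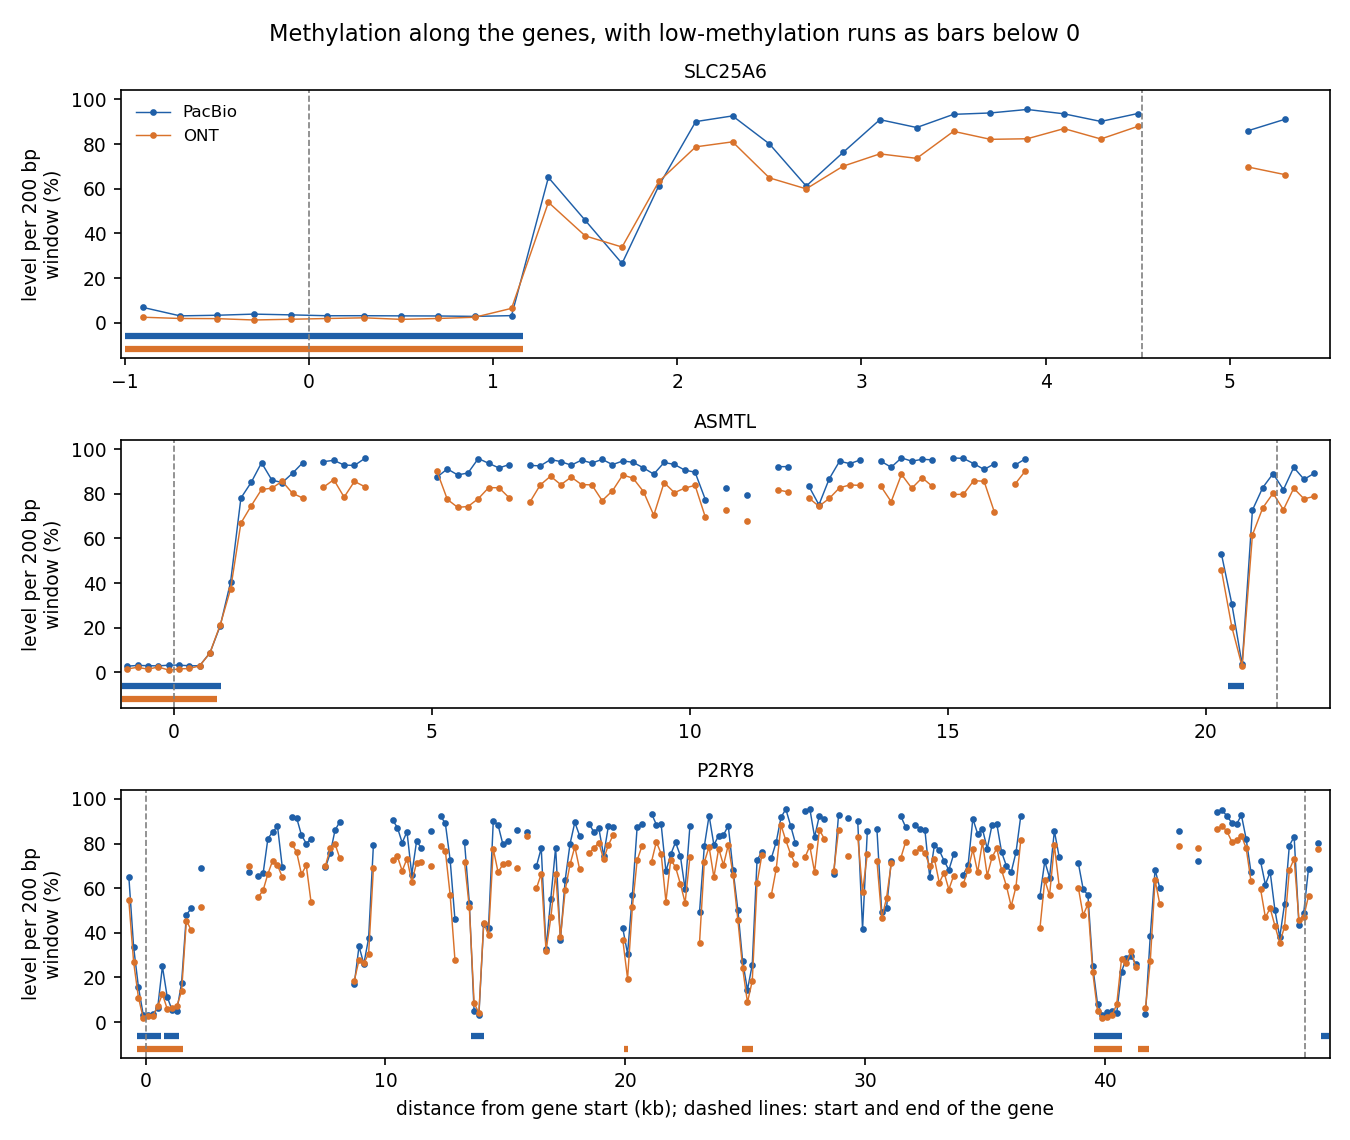
Mean methylation level (percent) of 200 bp windows with at least 3 CpGs along SLC25A6, ASMTL and P2RY8 and 1 kb on each side, by PacBio (blue) and ONT (orange), against distance from the gene start in kb; dashed lines mark the start and the other end of the gene, and bars below 0 mark low runs of each platform. ASMTL stays high between its ends, SLC25A6 rises from its start to its other end, and P2RY8 drops repeatedly, over the longest stretch about 40 kb from its start.

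Low runs were then called without regard to genes, as at least 10 successive CpGs under 20% in which single CpGs above 20% were allowed. In the 84203 bp from 735218 to 819420, PacBio gave 8 runs that held 684 of 2956 CpGs (23.1%), and ONT gave 8 runs with 720 CpGs (24.4%). In the whole PAR such runs held 6.26% of CpGs by PacBio and 6.71% by ONT. The PacBio and ONT runs shared 8318 bp, which is 84.7% of the length of the PacBio runs and 85.5% of that of the ONT runs. On each platform 3 of the runs covered a gene start.

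The run over the SLC25A6 start spanned 2229 bp (739578 to 741806, 242 CpGs) by PacBio, from 1066 bp upstream to 1162 bp inside, and averaged 3.53% by PacBio and 1.96% by ONT. The run over the ASMTL start spanned 2850 bp (766571 to 769420, 178 CpGs), from 1926 bp upstream to 923 bp inside, and averaged 3.91% and 2.76%. By ONT that run ended 1421 bp upstream (766654 to 768915, 174 CpGs); the PacBio run went on across 1 CpG at 85.4% to CpG 769420. Between ASMTL and P2RY8 lie 2561 bp. The P2RY8 start lay in a run of 993 bp (817781 to 818773, 94 CpGs) with 4.47% and 3.66%. A second PacBio run of 31 CpGs (817021 to 817666) followed inside the gene, and ONT joined both into 1 run of 1921 bp and 146 CpGs.

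Another long run lay outside SLC25A6, ASMTL and P2RY8, and whether another annotated entry covers it was not tested. It spanned 1071 bp (743622 to 744692) between SLC25A6 and ASMTL, 2882 bp upstream of the SLC25A6 start, and its 66 CpGs averaged 4.14% ± 4.45 by PacBio and 4.83% ± 6.71 by ONT. Between it and the run of the SLC25A6 start the bins 1500 to 2500 bp upstream of SLC25A6 stood between 86.6% and 95.5% by PacBio, so the pair was separated by methylated sequence.

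The other runs were short and depended more on the platform. A PacBio run of 10 CpGs in the ASMTL 3′ end (746757 to 747063) and one of 11 CpGs in the P2RY8 body (804303 to 804832) had no ONT run on them, though the ONT means over the same CpGs were low, at 10.7% and 11.4%. ONT runs of 10, 18 and 12 CpGs in the P2RY8 body (776578 to 777024, 793083 to 793548 and 798298 to 798483) had no PacBio run on them, and their PacBio means were 11.4%, 16.5% and 18.1%. These runs hold few CpGs, and the count of runs changed with the minimum of 10 CpGs: a minimum of 5 gave 16 runs by PacBio and 13 by ONT, and a minimum of 20 gave 6 and 5.

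The stretches between the genes differed widely in level. The 130 CpGs between the ASMTL start and the P2RY8 3′ end averaged 9.82% ± 21.5 by PacBio and 7.86% by ONT. The 326 CpGs between the SLC25A6 start and the ASMTL 3′ end averaged 31.2% ± 36.9 and 25.8%, a mean over 2 low runs and the methylated sequence around them. The 54 CpGs between the 3′ ends of IL3RA and SLC25A6, where no start lies, averaged 71.7% ± 23.7 and 59.5%. The 273 CpGs from the P2RY8 start to the next gene, LOC112445918, averaged 67.0% ± 27.9 and 55.9%.

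CpG density alone did not order the levels. Windows of 200 bp with at least 12 CpGs were taken as dense. All 18 dense windows of the 5′ ends were low, from 2.79% to 6.81% by PacBio, and all 8 of the 3′ ends were high, from 81.8% to 95.5%; P2RY8 had no dense window in its 3′ end. This split was less clean with a minimum of 8 CpGs, where 22 of 25 windows of the 5′ ends were low (up to 65.2%) and 10 of 13 of the 3′ ends were high (down to 30.8%) by PacBio. The 39 dense windows of the bodies had every kind of level, from 3.20% to 95.5% by PacBio and from 1.74% to 88.5% by ONT, and 3 of them were low and 24 high by PacBio.

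The genes differed in these dense body windows. The 14 of ASMTL averaged between 77.4% and 95.5% by PacBio; the lowest (757095 to 757294, 20 CpGs) stood at 77.4% ± 11.5 by PacBio and 69.5% by ONT, and the next lowest were 761895 to 762094 at 88.5% and 757295 to 757494 at 89.7% by PacBio. Its 3 highest, at 752895 to 753094, 754095 to 754294 and 764295 to 764494, stood at 95.5%, 95.2% and 94.99%. The 4 of SLC25A6 rose with distance from the start and then levelled: 61.4% at 738741 to 738940, 90.1% at 738541 to 738740, 92.6% at 738341 to 738540 and 87.4% at 737341 to 737540.

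The 21 dense windows of the P2RY8 body spanned nearly the whole scale. The lowest, 778421 to 778620, averaged 3.20% ± 0.495 over 14 CpGs by PacBio and 1.74% by ONT, and the next, 817021 to 817220 and 816821 to 817020, continue the low start of the gene at 5.05% and 17.6% by PacBio. The highest, 773421 to 773620, averaged 94.9% ± 1.73 over 20 CpGs by PacBio and 87.9% by ONT, followed by 773621 to 773820 at 94.1% and 772621 to 772820 at 92.7%. About 5 kb thus lay between the lowest and the highest dense window of that body. In P2RY8 the mean level of body windows was 71.0% ± 22.6 (SD over windows) at 3 to 7 CpGs, 65.6% ± 24.9 at 8 to 11 and 61.0% ± 32.04 at 12 or more by PacBio, differences well within these SDs. The 8 windows with at least 16 CpGs went the other way, at 81.4% by PacBio and 74.7% by ONT, so no trend with density held. In ASMTL the means were 91.2%, 91.2% and 92% by PacBio, and in SLC25A6 56.1%, 73.8% and 82.9% over 4, 3 and 4 windows.

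**Figure D4:**
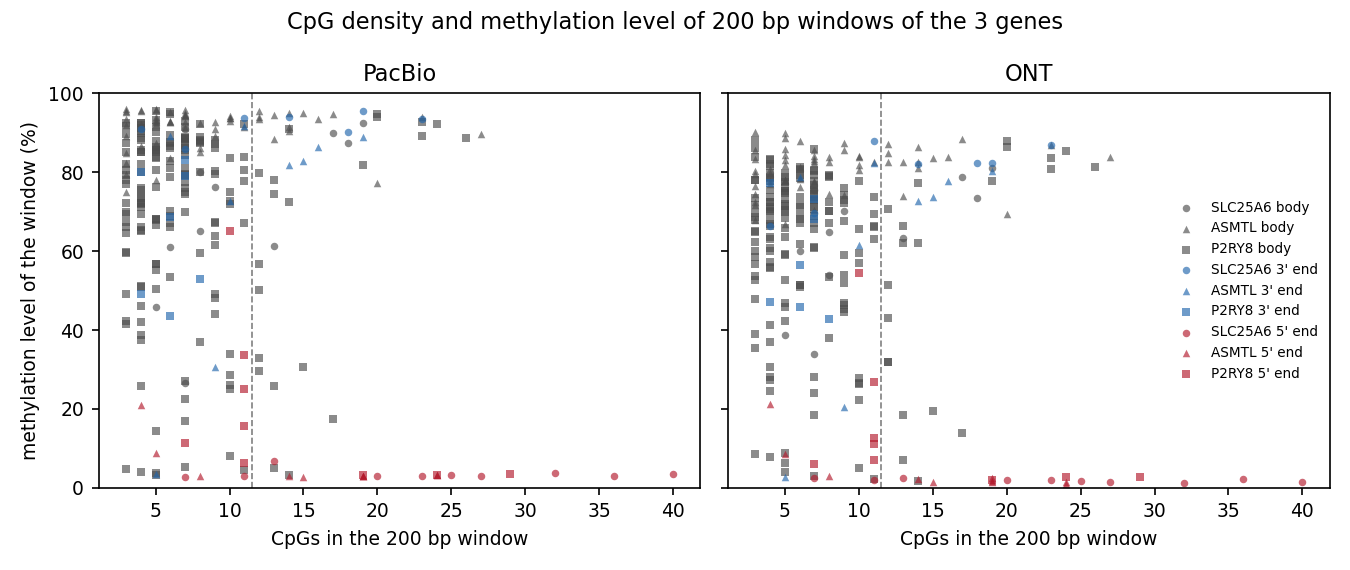
Methylation level (percent) of 200 bp windows with at least 3 CpGs that lie wholly in a 5′ end (red), body (grey) or 3′ end (blue) of SLC25A6 (circles), ASMTL (triangles) and P2RY8 (squares), against the number of CpGs in the window, by PacBio (left) and ONT (right); the dashed line marks the limit for dense windows. To the right of it, 5′ end windows lie at the bottom (2.79% to 6.81% by PacBio), 3′ end windows at the top (81.8% to 95.5%), and P2RY8 body windows at both.

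ONT read lower than PacBio in every part of every gene. At the 5′ ends the mean difference was -1.71 points in SLC25A6, -1.23 in ASMTL and -3.71 in P2RY8. Without CpGs with an ONT value of 0 it was -0.731 in SLC25A6, -0.0478 in ASMTL and -4.31 in P2RY8. In the bodies it was -7.92, -9.53 and -8.20 points, and in the 3′ ends -9.22, -9.998 and -7.22. Over the PAR it was -9.86 points. The 2 platforms use different callers and scales, and their part in this difference was not tested. Across the CpGs of a gene with its flanks Pearson's r between platforms was 0.983 in SLC25A6, 0.966 in ASMTL and 0.939 in P2RY8; the CpGs share libraries and neighbours are not independent, so these are descriptions. Within the SLC25A6 5′ end, where nearly no CpG differs from the next, r was -0.0204.

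Part of the low ONT values were exact zeros. Of the ONT strand values of the 5′ ends, 40.8% were 0 in SLC25A6, 36.1% in ASMTL and 17.4% in P2RY8, against 0.355%, 0% and 1.10% in the bodies and 1.98% in the PAR. A value of 0 can be a measured absence of methylation or a site without a passing call, and the deposited ONT values do not separate these. The PacBio levels, which have read counts behind each CpG, were low at the same stretches. A single CpG could still differ: CpG 769420, the last of the run over the ASMTL start, stood at 9.50% by PacBio (7 of 80 reads modified) and at 51.1% by ONT.

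Against the other genes of the PAR the 3 genes took different places. The same ends and bodies were measured in the protein-coding genes of the study's annotation with at least 20 CpGs in each part, which were 34 of 36 in the PAR and 59 of 202 outside it. The 5′ end averaged under 20% by PacBio in 25 of these 34 genes (73.5%) and in 28 of the 93 genes compared on the chromosome (30.1%, and 30.1% by ONT). Where 20 CpGs were asked of the 5′ end only, it was 32 of 185 genes (17.3% on both platforms). A low 5′ end was thus common in the PAR but not confined to it. Outside the PAR it was found in ZRSR2Y, SHROOM2 and TXLNG, and under the wider rule also in OFD1Y, KDM6A, ZFY and EIF2S3. Their levels ran from 3.11% to 15.5% by PacBio. Many other genes outside the PAR are copies of families such as TSPY1, TSPY3 and PRAME, so the shares over the chromosome partly count copies. P2RY8 had a low 5′ end with the mean over CpGs (14.7%) but not where windows of 200 bp had equal weight (22.9%). From the lowest 5′ end upward, SLC25A6 was number 3, ASMTL 5 and P2RY8 24 by PacBio, and 6, 10 and 23 by ONT. DHRSX and ZBED1 share the same 5′ end (6.90% by PacBio and 3.52% by ONT), which is counted for each in these shares and places. From the highest body downward, ASMTL was number 2, SLC25A6 22 and P2RY8 28 by PacBio, and 2, 21 and 28 by ONT. The medians of the other 31 PAR genes were 8.31% at the 5′ end, 82.4% at the 3′ end and 79.0% in the body by PacBio. Neighbours in the order of 5′ ends lay close together: numbers 1 to 8 stood between 3.23% and 3.98% by PacBio. Numbers 23 and 25, on either side of P2RY8, stood at 13.6% and 15.7%. Whether such means differ was not tested, since an SD over CpGs, such as 1.80 in SLC25A6, is not the error of a mean.

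The adjoining genes were unlike each other. IL3RA, the receptor chain for interleukin-3, ends 2127 bp from the SLC25A6 3′ end and runs on the opposite strand. Its 5′ end stood at 58.9% by PacBio and 51.2% by ONT, its body at 58.4% and 52.5%, and its 3′ end at 19.5% and 15.2%. It thus had no difference of 5′ end and body above 2 points, where its 3 neighbours had 53.1 points or more by PacBio. AKAP17A, an A-kinase anchoring protein that takes part in splicing, lies beyond P2RY8 and overlaps LOC112445918. It stood at 7.17% (5′ end), 93.6% (body) and 91.2% (3′ end) by PacBio and 4.30%, 84.5% and 84.2% by ONT, values near those of ASMTL except at the 3′ end. Its PacBio depth was lower, with medians of 46 to 48 reads in its parts. LOC112445918, the gene next to P2RY8, had the reverse order of 5′ end and body. It stood at 79.1% (5′ end), 33.2% (body) and 82.4% (3′ end) by PacBio and 68.9%, 27.3% and 69.1% by ONT. Its body overlaps the AKAP17A start.

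The study's annotation holds a second ASMTL entry in the PAR, listed in its gene table as a pseudogene on the plus strand, although the study's text counts the ASMTL copies among protein-coding genes. It had no low 5′ end: 82.7% ± 15.1 over 44 CpGs by PacBio and 73.1% by ONT, where ASMTL had 3.72% and 2.49%. Its body averaged 75.9% ± 25.8 over 787 CpGs by PacBio and 65.2% by ONT, against 90.1% and 80.6% in ASMTL. Reads that could align to either entry cannot be recognised in the deposited values, and their part in the levels of ASMTL was not tested.

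**Figure D5:**
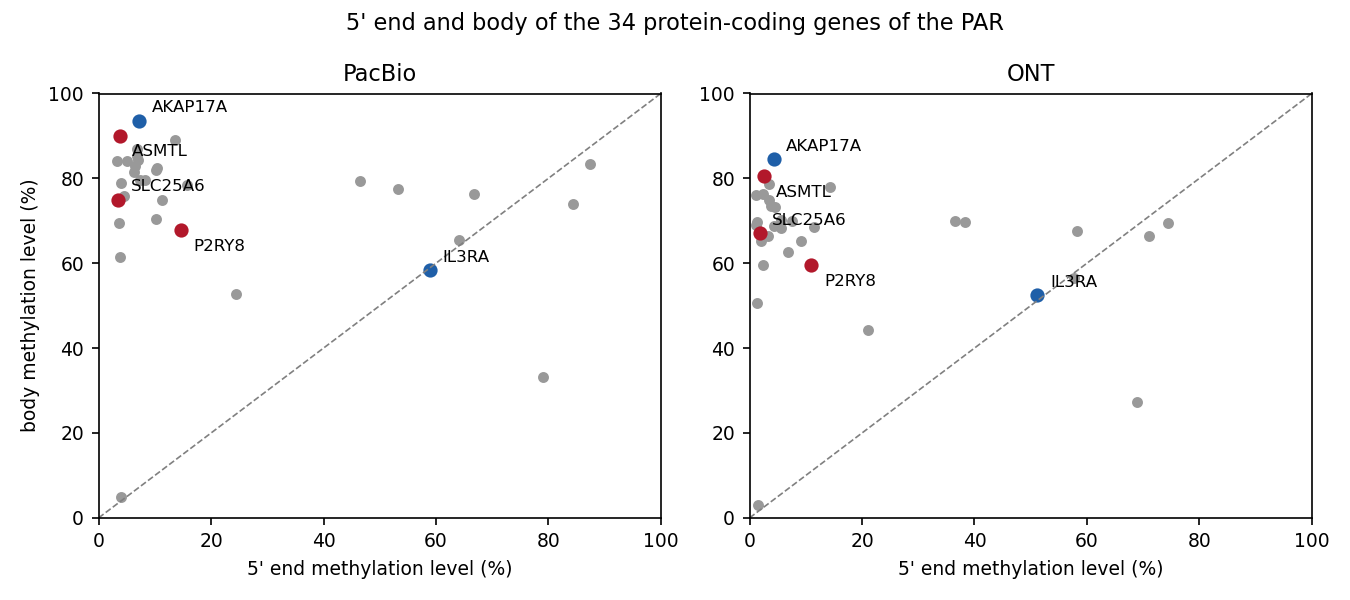
Methylation level (percent) of the 5′ end (horizontal) and body (vertical) of 34 protein-coding genes of the PAR by PacBio (left) and ONT (right); red points are SLC25A6, ASMTL and P2RY8, blue points IL3RA and AKAP17A, grey points the other genes, and the dashed line marks equal levels. SLC25A6 (3.48% and 75.0% by PacBio), ASMTL (3.72% and 90.1%) and P2RY8 (14.7% and 67.8%) lie left of 20%, and IL3RA lies on the line.

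The genes with the most similar pattern were found by the Euclidean distance over 6 levels, those of the 5′ end, 3′ end and body on both platforms, among the 92 other protein-coding genes of the chromosome with at least 20 CpGs in each part. For SLC25A6 they were GYG2 at a distance of 4.31 points, ARSH (8.10) and TBL1X (8.44). The TBL1X 5′ end had a median PacBio depth of only 16 reads, against 74 at that of SLC25A6. For ASMTL they were CSF2RA (13.8), DHRSX (14.3) and PUDP (14.4), and for P2RY8 ARSD (10.5), STS (17.99) and NLGN4X (20.5). All 9 lie in the PAR, and the same 9 genes were nearest among 163 genes where 5 CpGs in each part were enough. GYG2, which encodes a starter protein of glycogen synthesis, stood at 4.42%, 88.9% and 75.9% by PacBio at its 5′ end, 3′ end and body, each within 2 points of SLC25A6.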

How the data were processed

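PacBio and ONT reads of the lung DNA of 1 male fetus (1 library each, no replicates) were processed by the study's authors with Primrose, pbmm2 and aligned_bam_to_cpg_scores, and with Dorado, Winnowmap and modbam2bed. The deposited PacBio values are a modification score in percent per CpG, the count of covering reads and the model's estimated counts of modified reads; the deposited ONT values are a percent per strand, with no depth, so ONT precision is unknown. Positions were placed on the Y-chromosome assembly by mirroring the PacBio coordinates and shifting the ONT coordinates by a constant; 100% of PacBio CpGs then had both ONT values, but the placement was not tested against a genome sequence, and every position rests on it. In the study's annotation, 305 of 348 annotated genes matched the RefSeq table of ARS-UCD2.0 by start and end. CpGs under 10 PacBio reads (416 of 975164) were left out. Median PacBio depth was 40 reads (5th to 95th percentile 20 to 83). Means, SDs over CpGs and Wilson 95% intervals were computed with Python 3.11.15, pandas 2.3.3 and scipy 1.17.1, and the run caller was tested on simulated data. The genes, stretches and lists were chosen with earlier results of these data known. Named beside the 3 genes are IL3RA, AKAP17A, LOC112445918, the 3 genes nearest in pattern to each of the 3 genes, low runs, and the 3 lowest and 3 highest dense body windows. ZBED1 and the genes outside the PAR with a low 5′ end are also named. No genome sequence was used here, so none is printed. Alternatives changed the coverage minimum, window size, weighting, ONT strand, zeros and limits.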

Additional observations from a re-analysis of the deposited data

How the results depend on the processing

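Of 278 recomputed values under 16 other settings, 255 moved by less than the half-width of the Wilson 95% interval at the median PacBio depth of the stretch (used for ONT too, whose depth is unknown; for shares and run counts, the interval of the share and 1.5 times). That width is the counting error of a single CpG, wide for a mean over many CpGs, so this count does not show stability: 14 of 153 recomputed levels moved by over 1.5 times, 8 of them within that width. These 8 were the P2RY8 5′ end with 500 bp (6.35% by PacBio, 4.50% by ONT) and with equal weight for 200 bp windows (22.9% and 16.8%), the ASMTL 5′ end by ONT with 500 bp (1.65%), with equal weight (4.50%) and without CpGs with an ONT zero (4.45%), and the SLC25A6 5′ end by ONT without such CpGs (2.88%). No 5′ end minus body difference changed sign, but their order and the order of body and 3′ end did. The 23 values beyond the width follow. With windows of 2 kb the SLC25A6 5′ end was 14.3% by PacBio and 11.52% by ONT and its body 90.9% and 79.0%; the ASMTL 5′ end was 17.6% and 15.1%, its 3′ end 59.9% and 51.6%, and its difference -73.7 and -66.6 points, against -76.6 and -67.5 in SLC25A6; the P2RY8 3′ end was 38.7% and 33.0%. Such windows reach beyond the low stretches, and between ASMTL and P2RY8 they overlap. The P2RY8 3′ end then takes in part of the low stretch at the ASMTL start. With equal weight for 200 bp windows the SLC25A6 body was 64.9% by PacBio, below P2RY8 at 68.6%. With low under 10%, low CpGs by PacBio were 98.3% of the SLC25A6 5′ end, 69.6% of the P2RY8 5′ end, 2.13% of its 3′ end and 8.62% of its body; with low under 30%, 15.4% of that body. Runs of at least 5 CpGs numbered 16 by PacBio and 13 by ONT, and runs of at least 20 CpGs 5 by ONT. Dense windows of at least 16 CpGs in the P2RY8 body averaged 81.4% by PacBio and 74.7% by ONT. In alternatives added after the data were seen, the share of genes with a low 5′ end was 17.3% on both platforms where 20 CpGs were asked of the 5′ end only, and the genes nearest in pattern were the same 9 with at least 5 CpGs in each part. No paired analysis was possible because each platform has 1 library. One animal and 1 tissue limit all values, X and Y copies are not separated, and ONT zeros are ambiguous.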
